A study of Mus musculus with 6 samples.

Results

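The miR-15/16 family was represented by 4 probes of 178 on a two-colour microRNA (miRNA) array: miR-15a, miR-15b, miR-16 and miR-195 (probe IDs 1org-15a, 1org-15b, 1org-16 and 1org-195). They were chosen by name, and all 4 had a value on all 6 arrays. Each array compared total RNA of mouse CD4+CD25+ natural regulatory T cells, which restrain other T cells, with that of conventional CD4+CD25- T cells. No genotype, strain, age, treatment or time was given in the sources used here for either population, and the CD25 sort that separates them also takes up recently activated conventional T cells. The 3 biological replicates were each hybridised with the dyes in both orders, so that the CD4+CD25+ RNA carried Cy5 on arrays 1, 3 and 5 and Cy3 on arrays 2, 4 and 6 (numbers from the array titles). Which arrays form a replicate, and whether replicates came from separate animals, is not given. The p-values therefore cannot be said to measure a spread between animals. The array has no messenger RNA probes, so the identity of the cells could not be checked against Foxp3 or other defining genes.

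miRNAs lower the output of messenger RNAs that pair with their seed, bases 2 to 8 of the mature strand, and miRNAs with the same seed share many targets. The miR-15/16 family is best known for restraining the cell cycle and cell survival, through targets such as the cyclins D1 and E1 and Bcl2, and its miR-15a/16-1 locus is often lost in chronic lymphocytic leukaemia, a B cell cancer. In T cells the family is abundant and is known to limit proliferation.

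The mature strands are shown because their shared seed and their close similarity define the family; they come from RefSeq (GRCm38.p6), were matched to the probes by miRNA number, and carry the seed in capitals.
miR-15a: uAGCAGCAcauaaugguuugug
miR-15b: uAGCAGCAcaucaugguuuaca
miR-16: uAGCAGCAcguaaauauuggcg
miR-195: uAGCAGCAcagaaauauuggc

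All 4 strands were identical over the first 9 bases, uagcagcac, and differed mainly towards the 3′ end. Aligned from the 5′ end without gaps, miR-16 and miR-195 were the closest pair, with 19 of 21 bases identical, followed by miR-15a and miR-15b with 18 of 22. The most distant pair by count of differing bases was miR-15b and miR-16, which differed at 8 of 22 bases. The probe sequences were not used here, so how far each probe tells these strands apart was not tested. Of 1679 distinct mature names in the RefSeq table, 10 carried the seed AGCAGCA. The other 6 were miR-195b, miR-322-5p, miR-497a-5p, miR-6342, miR-6353 and miR-6419, and none of the miR-322, miR-424, miR-497 and miR-503 relatives had a probe of that number here.

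The 4 miRNAs come from 5 genes at 3 loci. miR-15a (Mir15a, GRCm38.p6 chr14:61632075-61632096, minus strand) lies within the span of the non-coding gene Dleu2, 117 bases from the copy of miR-16 in Mir16-1 (chr14:61631936-61631957, minus strand). miR-15b (Mir15b, chr3:69009775-69009796, plus strand) lies within the span of Smc4, which encodes a condensin subunit, 121 bases from the second copy of miR-16 in Mir16-2 (chr3:69009918-69009939, plus strand). Both copies give the same mature strand, so the miR-16 probe reads the sum of 2 loci. miR-195 (Mir195a, chr11:70235062-70235082, plus strand) lies 310 bases from the miR-497a strand and within no other gene span of the table. The positions belong to the RefSeq entries, not to the arrays, and exon or intron was not assigned.

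Every value below is a log2 ratio, regulatory (CD4+CD25+) over conventional (CD4+CD25-) cells, or a difference of such ratios, and none is a level of expression. The deposited ratio was read as Cy5 over Cy3 and arrays 2, 4 and 6 were multiplied by -1. The order of the channels makes this direction likely, but neither it nor the log base is stated. If the ratio were Cy3 over Cy5, all signs would change. Errors are SDs over 3 replicates, each the mean of 2 arrays of opposite dye. Since the pairs are unknown, all 6 possible pairings were fitted and the largest SD and largest adjusted p among them are given, and a probe was called when limma's Benjamini-Hochberg adjusted p over all 171 miRNA probes was under 0.05 in all 6. The arrays did not share a median, and whether an offset common to all probes of an array lies behind this was not tested. The median miRNA probe stood at -0.085, -0.312 and 0.097 on arrays 1, 3 and 5, but at 1.83, 1.29 and 1.82 on arrays 2, 4 and 6. The values are therefore given both as deposited and relative to the median miRNA probe of each array.

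As deposited, the 4 family members had mean log2 ratios around 0, from -0.53 for miR-15a to 0.32 for miR-15b, with a median of 0.071. None of the 4 was called in limma, whereas 76.0% of the miRNA probes were called in either direction. In CD4+CD25+ cells 67.3% were called higher and 8.77% lower. These shares depended on the dye orientation: 147 probes were called from arrays 2, 4 and 6 alone and 19 from arrays 1, 3 and 5 alone. Of the members, miR-15a was called from the former, as lower, and none from the latter. At an unadjusted p under 0.05, 1 of the 4 passed, miR-15a, against 77.8% of all miRNA probes. miR-15a was also the 1 called in a limma fit over 6 arrays that ignores the pairs, as lower, where 82.5% of all probes were called and 10.5% were called lower. The median of all 171 probes was 0.82 on the same scale, so the members lay below most probes while lying close to 0. Ordered from the lowest ratio, miR-15a was probe 16, miR-195 probe 33, miR-16 probe 37 and miR-15b probe 41 of 171.

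**Figure D1:**
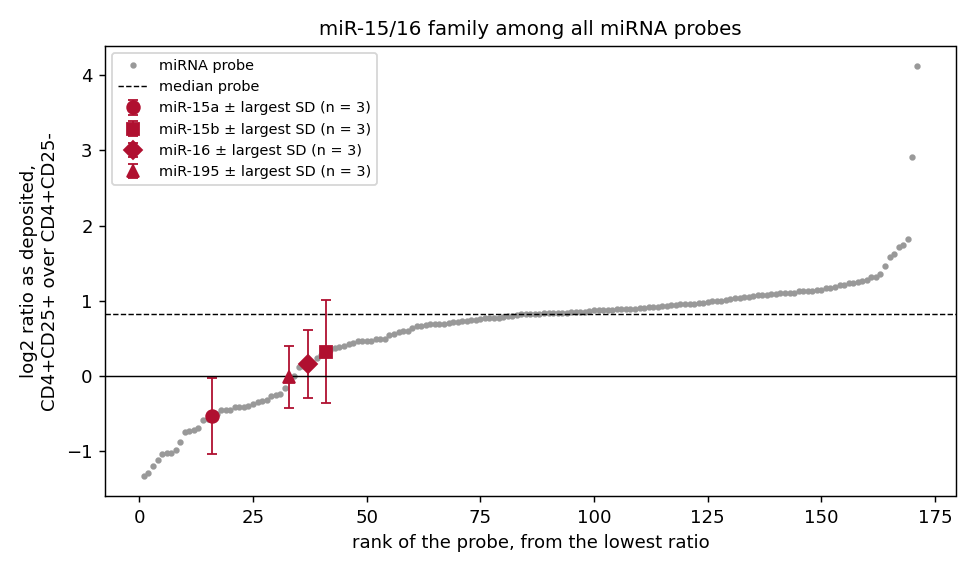
Mean log2 ratio as deposited (y axis, regulatory over conventional cells) of each of the 171 miRNA probes, ordered from the lowest (x axis), with the 4 family members in red and their largest SD over pairings as bars (n = 3); the dashed line is the median probe. All 4 members lie in the lower part of the order, at ranks 16 to 41, and around 0, while the median probe stands at 0.82.

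miR-15a, the partner of miR-16 in the locus lost in leukaemia, had the lowest ratio of the family with the arrays turned. Its values were -0.617, -0.068 and 0.097 with CD4+CD25+ cells in Cy5 (arrays 1, 3 and 5) and -0.914, -1.50 and -0.191 with them in Cy3 (arrays 2, 4 and 6). It was below 0 on 5 of 6 arrays, array 5 being the exception, and the ranges of both dye orientations overlapped. The mean was -0.53 ± 0.507 (SD, n = 3), equal to 1.45-fold lower in CD4+CD25+ cells. It missed the threshold in limma (largest adjusted p = 0.0643) but passed in 5 of the 6 pairings, the smallest adjusted p being 0.0114.

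miR-15b, which shares 18 of 22 bases with miR-15a but comes from the Smc4 locus, had the highest ratio. It read 1.24, 0.897 and 0.247 on arrays 1, 3 and 5 and 0.572, -1.11 and 0.084 on arrays 2, 4 and 6. It was above 0 on 5 of 6 arrays and low on array 4. The mean was 0.32 ± 0.685 (SD, n = 3; limma adjusted p = 0.252), and 0 of 6 pairings gave a call. The SD was the largest of the 4 members. Without arrays 5 and 4, the mean was 0.70 and it was called higher (limma adjusted p = 0.0298). In that fit 127 of the 171 probes were called, 115 of them higher. Of 9 fits that each left out a pair of opposite arrays, it was the only 1 to call miR-15b as deposited.

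miR-16, made from both loci, lay between its 2 partners. Its values were 0.103, 1.12 and 0.303 on arrays 1, 3 and 5 and -0.395, -0.427 and 0.226 on arrays 2, 4 and 6. Arrays 1, 3 and 5 were all above 0, and 2 of the 3 others below it, with array 3 standing highest. The mean was 0.15 ± 0.451 (SD, n = 3; limma adjusted p = 0.582).

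miR-195, from the locus it shares with miR-497, had a ratio closest to 0 of the 4. Its values were -0.229, -0.256 and 0.136 on arrays 1, 3 and 5 and 0.493, -0.695 and 0.476 on arrays 2, 4 and 6, so 3 arrays were above 0 and 3 below. The mean was -0.013 ± 0.412 (SD, n = 3; limma adjusted p = 0.969). In limma the largest standard error over the 6 pairings was 0.271 for each of the 4 members, since the variance was pooled over all probes. The p-values therefore do not follow from the SDs beside them. In the order miR-15a, miR-195, miR-16 and miR-15b, the neighbours miR-195 and miR-16, and miR-16 and miR-15b, differed by less than the SD of their difference, while miR-15a lay below miR-195 by more than that SD.

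**Figure D2:**
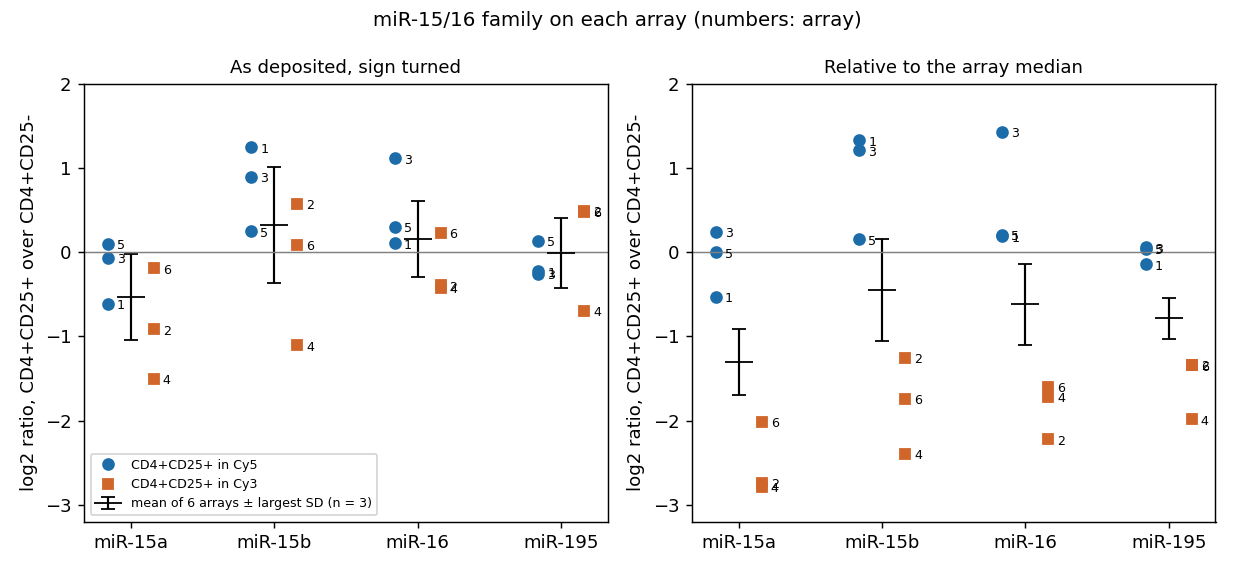
Log2 ratio (y axis, regulatory over conventional cells) of the 4 members (x axis) on each array, numbered, as deposited (left) and relative to the array median (right); blue circles are arrays 1, 3 and 5 (regulatory cells in Cy5), orange squares arrays 2, 4 and 6, and black bars the mean with the largest SD over pairings (n = 3). On the left the orientations overlap for every member, and on the right every orange square lies below every blue circle of the same member.

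Relative to the median probe of each array, 3 of the 4 members were called lower in CD4+CD25+ cells and none higher, against 28.1% of all miRNA probes in either direction, 22.8% lower and 5.26% higher. miR-15a stood at -1.31 ± 0.392 (SD, n = 3; limma adjusted p = 0.000222), a ratio 2.47-fold below that of the median probe. miR-195 stood at -0.79 ± 0.241 (adjusted p = 0.00299) and miR-16 at -0.62 ± 0.481 (adjusted p = 0.0367). miR-15b did not pass, with -0.45 ± 0.601 (adjusted p = 0.153). Leaving out a pair of opposite arrays kept the call of miR-15a in 9 of 9 fits, of miR-195 in 7 and of miR-16 in 3, and gave miR-15b a call as lower in 2. miR-195 was not called without arrays 1 and 4 or 1 and 6 (adjusted p = 0.0578 and 0.0799), and miR-16 was not called without arrays 1 and 2, 1 and 4, 1 and 6, 5 and 2, 5 and 4 or 5 and 6 (adjusted p from 0.068 to 0.278). miR-15b was called without arrays 1 and 2 or 3 and 2 (adjusted p = 0.0491 and 0.0392).

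The distance from the median probe came from 1 dye orientation. With CD4+CD25+ cells in Cy5 the 4 members lay around or above the median probe. miR-15a read -0.532, 0.244 and 0 relative to it on arrays 1, 3 and 5, being itself the median probe on array 5. On the same arrays miR-195 read -0.144, 0.056 and 0.039, miR-16 read 0.188, 1.43 and 0.206, and miR-15b read 1.33, 1.21 and 0.15. On arrays 2, 4 and 6, with CD4+CD25+ cells in Cy3, miR-15a read -2.74, -2.79 and -2.01, which lies below each of its other 3 values.

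miR-195 read -1.34, -1.98 and -1.35 there, miR-16 read -2.22, -1.72 and -1.60, and miR-15b read -1.26, -2.40 and -1.74. The orientations thus did not overlap for any of the 4. From arrays 1, 3 and 5 alone, 0 of 4 members were called (limma adjusted p from 0.0784 for miR-15b to 0.977 for miR-195; 1 of 4 at an unadjusted p under 0.05), a share near the 10.5% of all probes called there, and miR-15b and miR-16 had means above 0, at 0.90 and 0.61. From arrays 2, 4 and 6 alone, 4 of 4 were called lower, at -2.51, -1.80, -1.84 and -1.55 for miR-15a, miR-15b, miR-16 and miR-195, against 34.5% of all probes called lower there.

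The difference between orientations was tested in a limma fit over 6 arrays with a column for the dye. As deposited, 0 of 4 members had a dye effect, whereas 70.2% of the miRNA probes did. The low share was not particular to the family: 4 of 15 probes of the resting lymphocyte list described below had one. The differences, Cy5 orientation minus Cy3 orientation, were 0.67 for miR-15a (adjusted p = 0.174), 0.95 for miR-15b (adjusted p = 0.0741), 0.71 for miR-16 (adjusted p = 0.147) and -0.21 for miR-195 (adjusted p = 0.68). At an unadjusted p under 0.05, 0 of the 4 passed. Relative to the array median, 4 of 4 members had a dye effect, with differences of 2.42, 2.69, 2.45 and 1.54 (adjusted p of 0.000588 or less). So did 45.6% of all miRNA probes and 12 of the 15 on that list. The members' own ratios moved less between orientations than the median probe did, from a median member of 0.20 to -0.17 against a median probe of -0.080 to 1.73. Signal over background is not known for these arrays.

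**Figure D3:**
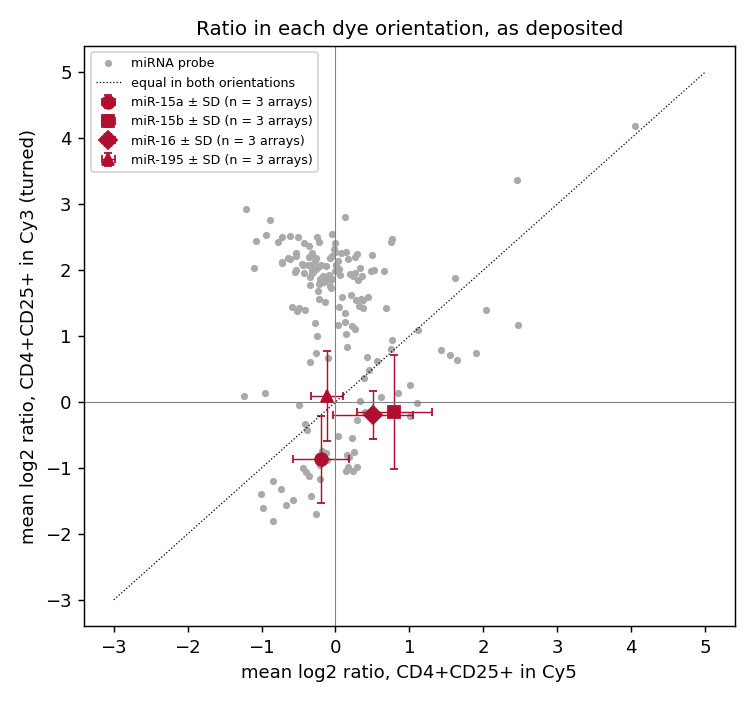
Mean log2 ratio as deposited of every miRNA probe in the orientation with regulatory cells in Cy5 (x axis) and in the one with them in Cy3, sign turned (y axis; 3 arrays each); grey points are probes, red symbols the 4 members with SDs over arrays as bars, and the dotted line marks equal ratios. Most probes lie well above the line, with a median of -0.080 on the x axis and 1.73 on the y axis, while miR-195 lies near it and the other 3 members lie below it, by 0.67 to 0.95.

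The order of the members among the 171 probes showed the same split. By the mean of arrays 1, 3 and 5, miR-15a was probe 70 from the lowest, miR-195 probe 81, miR-16 probe 147 and miR-15b probe 157, so the latter pair stood high. By the mean of the other 3 arrays they were probes 20, 39, 32 and 34. On array 3, 160 probes lay below miR-16 and 157 below miR-15b. On array 4, 37 and 25 did.

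Differences between members on the same array do not depend on the zero point, and were compared next, as a description with no test. miR-15a was lower than miR-15b on 6 of 6 arrays, with differences of -1.86, -0.965 and -0.15 on arrays 1, 3 and 5 and of -1.49, -0.393 and -0.275 on arrays 2, 4 and 6 (mean difference -0.85 ± 0.746, SD, n = 3). The 2 probes are for strands that differ at 4 of 22 bases and come from separate loci. The difference was large on arrays 1 and 2 and small on arrays 5 and 6.

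miR-15a was also lower than miR-16, its partner at the Dleu2 locus, on 6 of 6 arrays. The differences were -0.72, -1.18 and -0.206 on arrays 1, 3 and 5 and -0.519, -1.07 and -0.417 on arrays 2, 4 and 6 (mean -0.69 ± 0.413, SD, n = 3). The means of both orientations were alike, at -0.70 and -0.67. Against miR-195, miR-15a was lower on 5 of 6 arrays (-0.52 ± 0.340), with -0.080 in the Cy5 orientation and -0.96 in the other.

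The remaining 3 pairs straddled 0. miR-15b minus miR-16, the partners at the Smc4 locus, averaged 0.17 ± 0.787 (SD, n = 3) and was above 0 on 2 of 6 arrays: it read 1.14 and 0.967 on arrays 1 and 2, -0.219 and -0.681 on arrays 3 and 4, and -0.056 and -0.142 on arrays 5 and 6. miR-15b minus miR-195 averaged 0.34 ± 0.465 and miR-16 minus miR-195, the pair most alike in sequence, 0.17 ± 0.600, each above 0 on 4 of 6 arrays. For both, the orientations gave opposite signs, 0.91 and -0.24 for the first and 0.62 and -0.29 for the second.

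**Figure D4:**
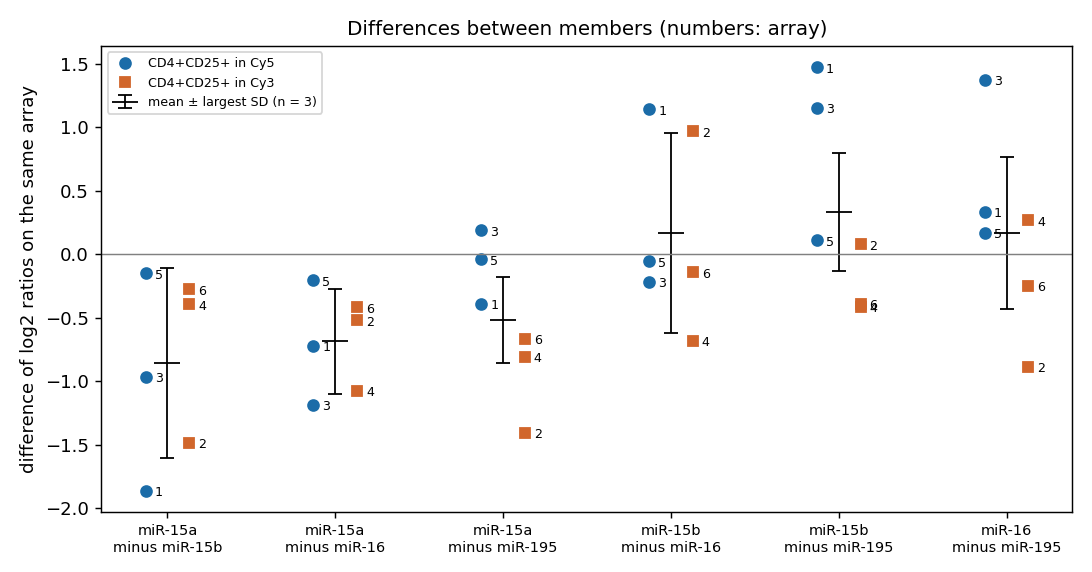
Difference between the log2 ratios of 2 members on the same array (y axis) for the 6 pairs of members (x axis), with arrays numbered; blue circles are arrays 1, 3 and 5 (regulatory cells in Cy5), orange squares arrays 2, 4 and 6, and black bars the mean with the largest SD over pairings (n = 3). miR-15a minus miR-15b and miR-15a minus miR-16 are below 0 on 6 of 6 arrays, and the other 4 pairs have arrays on both sides of 0.

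For each member, some probes outside the family lay closer over the arrays than its nearest relative did. The relatives are few and the other probes many, so this comparison cannot show that the relatives were unlike. Likeness was measured as the root mean square difference of the log2 ratios over the 6 arrays, a value that centring does not change. For miR-15a the nearest probes outside the family were miR-30d (0.223), miR-29a (0.287) and miR-106b (0.332), while its nearest relative, miR-195 (0.737), was 22nd of 170. For miR-15b they were miR-191 (0.288), miR-103 (0.412) and let-7g (0.416), with miR-16 (0.679) 10th. For miR-16 they were miR-93 (0.427), miR-30a* (0.451) and miR-103 (0.455), with miR-15b 14th. For miR-195 they were miR-30a* (0.442), miR-149 (0.511) and miR-106a (0.531), with miR-16 (0.700) 20th. The typical probe was farther away, the median distance being 1.94, 1.62, 1.56 and 1.31 from miR-15a, miR-15b, miR-16 and miR-195. The 6 arrays are not independent, since some have their dye orientation or hybridised RNA in common, so the distances are a description.

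The resting lymphocyte list held 15 probes for miRNAs abundant in such cells. They were for miR-150, miR-181, the miR-26, miR-29 and miR-30 families and the strands of miR-142, which counts more than once. Of the 15 probes, 11 were called lower as deposited, 0 higher and 4 were not called. Their median was -0.72 and their range -1.33 to 0.46, against a median of 0.071 for the family and 0.82 for all probes. Relative to the array median 14 of the 15 were called lower, with a median of -1.49 against -0.70 for the 4 members. Whether these lists differ was not tested. In the 2 dye orientations the resting lymphocyte list had medians of -0.49 and -1.06 as deposited, so it lay below 0 in both, which the family's 0.20 and -0.17 did not.

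miR-223, a marker of myeloid cells, was the highest probe at 4.12 ± 0.855 (SD, n = 3; limma adjusted p = 0.000103), above 0 on 6 of 6 arrays. The miR-144 probe, an erythroid marker, stood at 0.69 and the 27 probes for miRNAs of other tissues ranged from 0.55 to 1.25 around 0.86. These values are as deposited, where the median of all miRNA probes was 0.82. Once each array was centred on its median probe, miR-144 read -0.079 and was not called in limma. Of the 27, 25 were called higher as deposited and 0 after centring. miR-223 was still called higher after centring, at 3.34. The part of other cells in the family's ratios was not tested, and in sorted bulk RNA fewer cells of a type and less RNA per cell cannot be told apart.

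After turning, the highest and lowest probes, miR-223 and miR-30b, each kept their sign on 6 of 6 arrays. Their means were 4.05 and -0.85 on arrays 1, 3 and 5, and 4.18 and -1.81 on arrays 2, 4 and 6. Read without turning, both would change sign with the dye. miR-153, at -1.21 and 2.92, went the other way. miR-223 and miR-30b were picked as the extremes of the turned means, so their kept sign follows in part from that choice. They cannot decide between the readings. Over all miRNA probes, turned arrays of opposite dye correlated at only -0.251 to 0.369. Which reading holds was not tested. The table does not say if its dye-swapped arrays were turned before deposit. If they were, the means as deposited would be 0.34 for miR-15a (limma adjusted p = 0.265), 0.47 for miR-15b, 0.35 for miR-16 and -0.10 for miR-195, which would then be the lowest, and 1.75% of all probes would be called higher and 51.5% lower. miR-15a would lie below miR-15b on 3 of 6 arrays, with a mean difference of -0.14, and below miR-16 on 3 of 6, with -0.017. The means would be 1.21, 1.35, 1.23 and 0.77 for miR-15a, miR-15b, miR-16 and miR-195 relative to the array median, where all 4 would be called higher (adjusted p of 0.00288 or less), as would 34.5% of all probes, with 10.5% called lower.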

How the data were processed

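The authors deposited 1 table of log2 ratios (the log base is taken as log2) of the 2 channels for 178 probes, 171 for miRNAs and 7 for small nuclear RNAs or tRNAs, on 6 arrays. How the deposited ratios were corrected, normalized, centred or directed is not given in the sources used here, and neither scanner intensities nor depth entered. Each probe took its name from its ID, and platform annotation gave matching symbols for miR-15a, miR-15b and miR-195 and none for miR-16. Sequences came from RefSeq tables (GRCm38.p6). Arrays with CD4+CD25+ cells in Cy3 were turned, means of opposite pairs were fitted with limma 3.58.1 (R 4.3.3; lmFit, eBayes) under all 6 pairings, and p-values were adjusted over 171 probes. Over these probes, turned arrays of opposite dye correlated at -0.251 to 0.369. The fits without centring were tested on simulated data in which as many probes were raised as lowered. The fit relative to the array median was not tested in this way.

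Named were the 4 members, the 3 nearest probes to each, a resting lymphocyte list, and miR-223. The miR-144 value was added after it was seen. Members, lists and tests were chosen with earlier results of these data known. Alternatives were other zero points, scale normalization, other pairings, single orientations, no turning, omission of noisy probes, a robust fit and leaving out pairs of arrays. Background correction, a filter on dim probes and slide as a block need scanner files and were not run.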

Additional observations from a re-analysis of the deposited data

Results flagged for a closer look

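Relative to the array median, the ratio of each of the 4 members differed between the dye orientations in limma (Cy5 orientation minus Cy3 orientation, fit over 6 arrays), against 45.6% of all miRNA probes. The difference was 2.42 for miR-15a, 2.69 for miR-15b, 2.45 for miR-16 and 1.54 for miR-195 on the log2 scale. In each case every array with CD4+CD25+ cells in Cy3 lay below every array with them in Cy5. As deposited, 0 of the 4 members differed, against 70.2% of all miRNA probes, while the median probe moved from -0.080 to 1.73. Groups of 3 arrays were too small to look for single outlying arrays.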

How the results depend on the processing

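The zero point, the dye orientation and the turning of the arrays each changed calls, and the number of arrays limits the precision. Centred on miRNAs of other tissues, miR-15a (-1.46), miR-16 (-0.78) and miR-195 (-0.94) were called lower and miR-15b (-0.61) was not, so miR-15b and miR-16 changed sign against the values as deposited. Centred on U6 and the tRNAs, none was called (limma; miR-15a -0.12, miR-15b 0.74, miR-16 0.57, miR-195 0.40), 3 changed sign against the values relative to the median, and miR-195 did against its value as deposited. Centring also changed the counts of called probes, to 45 (6 higher, 39 lower) with other tissues and 127 (125 higher, 2 lower) with U6 and the tRNAs.

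Scale normalization ended the call of miR-16 relative to the median (-0.41) and left 13 probes called as deposited. With CD4+CD25+ cells in Cy5 only, the values relative to the median were -0.096 (miR-15a), 0.90 (miR-15b), 0.61 (miR-16) and -0.016 (miR-195), none called, with 19 probes called as deposited and 18 relative to the median. With them in Cy3 only, the values as deposited were -0.87 (miR-15a, called), -0.15 (miR-15b), -0.20 (miR-16) and 0.091 (miR-195), the last 3 with a changed sign and no call. Relative to the median miR-15b then passed at -1.80, and 98 probes were called. With no array turned, miR-15a was 0.34 as deposited, the 4 members were 1.21, 1.35, 1.23 and 0.77 relative to the median (miR-15a, miR-15b, miR-16, miR-195), and 77 probes were called relative to the median (59 higher, 18 lower; 9 and 39 with the arrays turned) and 91 as deposited (3 higher, 88 lower). The fit over 6 arrays with no replicate block called miR-15a lower as deposited (-0.53, limma adjusted p = 0.0316), as did leaving out the 17 noisiest probes (adjusted p = 0.0268). Labels do not give the pairs; pairing adjacent array numbers or a robust fit changed no member's call.

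Leaving out 1 pair of opposite arrays gave, as deposited, -0.78 to -0.27 for miR-15a, 0.03 to 0.70 for miR-15b, -0.10 to 0.31 for miR-16 and -0.18 to 0.22 for miR-195. Relative to the median the ranges were -1.52 to -1.13, -0.69 to -0.11, -0.89 to -0.42 and -0.86 to -0.65, in the same order. miR-15a was called as deposited in 1 of 9 fits, without arrays 3 and 6 (-0.73, limma adjusted p = 0.0422), where 115 probes were called, 14 of them lower. Counts of called probes ranged from 0 (without arrays 3 and 2, where limma's unadjusted p was under 0.05 for 98) to 127 as deposited and from 21 to 49 relative to the median. Without turning, miR-15a minus miR-195 changed sign, to 0.44, miR-15a minus miR-16 was -0.017 and miR-15a minus miR-15b was -0.14. The cause of these changes was not tested.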
